A study of Saccharomyces cerevisiae with 8 samples.

Results

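ESA1 and 9 genes for other subunits of the NuA4 acetyltransferase complex were followed across strains of the budding yeast Saccharomyces cerevisiae. The members were taken by gene symbol from the array's annotation (ESA1, EPL1, YNG2, EAF1, EAF3, EAF5, EAF6, EAF7, YAF9 and TRA1). All 10 had a single probe set, among 5449 yeast genes on the array. The remaining NuA4 subunits, ARP4, SWC4 and ACT1, are described beside them.

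The 8 Affymetrix arrays cover a double mutant (esa1 sup2-, 3 arrays), a single mutant that keeps ESA1 (ESA1 sup2-, 3 arrays) and a wild type (ESA1 SUP2, 2 arrays). Both mutants carry the sup2- mutation, so by their labels the double and the single mutant differ in ESA1 and the single mutant and wild type in SUP2. The labels name neither the gene behind SUP2 nor the nature of the esa1 allele, and they give no further genotype. All strains were grown overnight to saturation at 30 °C in 10 mL of YPD (yeast extract, peptone and 2% glucose). Each array was hybridised with material labelled from 5 µg of total RNA.

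NuA4 acetylates histones H4 and H2A at promoters and in gene bodies, and Esa1 is its catalytic subunit and an acetyltransferase without which wild-type budding yeast cannot live. The complex is built from modules: a catalytic one (Esa1, Epl1, Yng2, Eaf6), a large subunit that meets transcription activators (Tra1), a histone-reading one (Eaf3, Eaf5, Eaf7), a scaffold (Eaf1) and subunits shared with the SWR1 remodeller (Yaf9, Arp4, Swc4, Act1). Several parts also serve other complexes, Tra1 in SAGA, Eaf3 in the deacetylase Rpd3S and Eaf6 in the acetyltransferase NuA3.

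Values are MAS5 signals, the brightness of a gene's probe set on a linear scale, and signals of different genes are not compared with each other. The authors had scaled every array to a common mean (trimmed means 500.2 to 500.3), so a change in total RNA per cell would not be seen. A log2 fold change is the difference of mean log2(signal + 121) and understates changes of dim genes. A gene is called higher or lower at a limma adjusted p under 0.05, taken over the 4398 probe sets left once the dimmest 20% were removed. Of the members, 9 passed that filter and EAF7 did not. ESA1 passed through its signal in the single mutant and wild type. EPL1 and YNG2 did as well, since their double-mutant signals alone (means 235 and 231) were too dim to pass. Counts of members lower in the double mutant therefore lean on the filter.

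Several facts of the arrays bear on every comparison. Each strain was washed and stained on its own fluidics station, so station and strain cannot be told apart. Replicate arrays differed most in the double mutant (SD of log2 differences 0.262 to 0.323), against 0.09 to 0.21 in the single mutant and 0.111 in the wild type. Control probe sets read the 3′ and 5′ ends of 8 yeast genes, and the ratio of the ends is a measure of RNA and labelling quality. For ACT1, EAF5 and URA3 this ratio was lower on all double-mutant arrays than on any other array, and for the other 5 genes the arrays overlapped. For EAF5 it was 2.48 to 3.35 in the double mutant, against 3.65 to 3.98 in the single mutant and 3.59 to 3.83 in the wild type; its part in the results was not tested. Whether replicates were separate cultures is not stated, and the p-values therefore reflect the spread between these arrays, which may be technical.

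In the double mutant, signals of EPL1, YNG2, EAF6, EAF3 and TRA1 were 49.2% to 53.7% of the wild-type mean, YAF9 was at 165% and EAF5 at 99.5%. Of the 9 tested members, 6 were lower and 1 higher in the double mutant than in the wild type (background over all tested probe sets 36.6% lower, 37.9% higher and 74.5% in either direction). By array overlap alone, 6 lay wholly below and 1 wholly above the wild type (background 40.0%, 41.8% and 81.8% in either direction). The median log2 fold change of the members was -0.76, beside 0.01 for all probe sets. With ESA1 set aside, 5 of 8 were lower and 1 higher, with a median of -0.72. EPL1 and YNG2, among those lower, also passed the filter through the other strains.

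In the double against the single mutant, 6 of the 9 were lower and 0 higher (background 35.8% lower, 31.8% higher and 67.6% in either direction), with a median of -0.37 beside -0.02 for all probe sets. The arrays of 5 lay wholly below and of 0 wholly above those of the single mutant (background 37.3%, 33.5% and 70.8% in either direction). Without ESA1, whose allele defines the comparison, 5 of 8 were lower and 0 higher, with a median of -0.33. EPL1 and YNG2 are again among those lower. The count over 9 leaned on the scaling of the arrays. With the arrays scaled to the added poly-A control RNAs it was 2 lower and 1 higher, and with quantile normalization 3 lower and 1 higher. Over all 4398 probe sets 724 were lower and 1586 higher with poly-A scaling. With quantile normalization 1298 were lower and 1524 higher, against 1574 and 1397 in the main fit. The median of all probe sets then moved to 0.18 with poly-A scaling, and it was 0.11 with median centring and -0.13 with hybridization control scaling. Without double-mutant replicate 3, YAF9 was called as 1 higher member.

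Between single mutant and wild type 4 were lower and 1 higher (background 22.1% lower, 28.5% higher and 50.6% in either direction), with a median of -0.26 beside 0.01. The single-mutant arrays of 6 lay wholly below and of 1 wholly above the wild type (background 37.4%, 40.4% and 77.8% in either direction). With ESA1 set aside, 3 of 8 were lower and 1 higher, with a median of -0.17. Without single-mutant replicate 1 there were 2 lower members, and over all probe sets 763 were lower, against 974 with all arrays. The counts rest on 2 wild-type arrays. With either left out 1 remained, so counts from those fits are not given, and the calls lost there are named with each gene. The comparisons share arrays, so their counts are not independent. Over all probe sets the split of calls also moved with scaling. In the double against the single mutant it was 1397 higher and 1574 lower, against 1760 and 1173 with median centring and 1586 and 724 with poly-A scaling. In the double mutant against the wild type it was 1669 higher and 1608 lower, against 1855 and 861 with poly-A scaling. For the single mutant over wild type it was 1253 higher and 974 lower, against 848 and 378 with poly-A scaling and 1310 and 577 with hybridization control scaling.

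**Figure D1:**
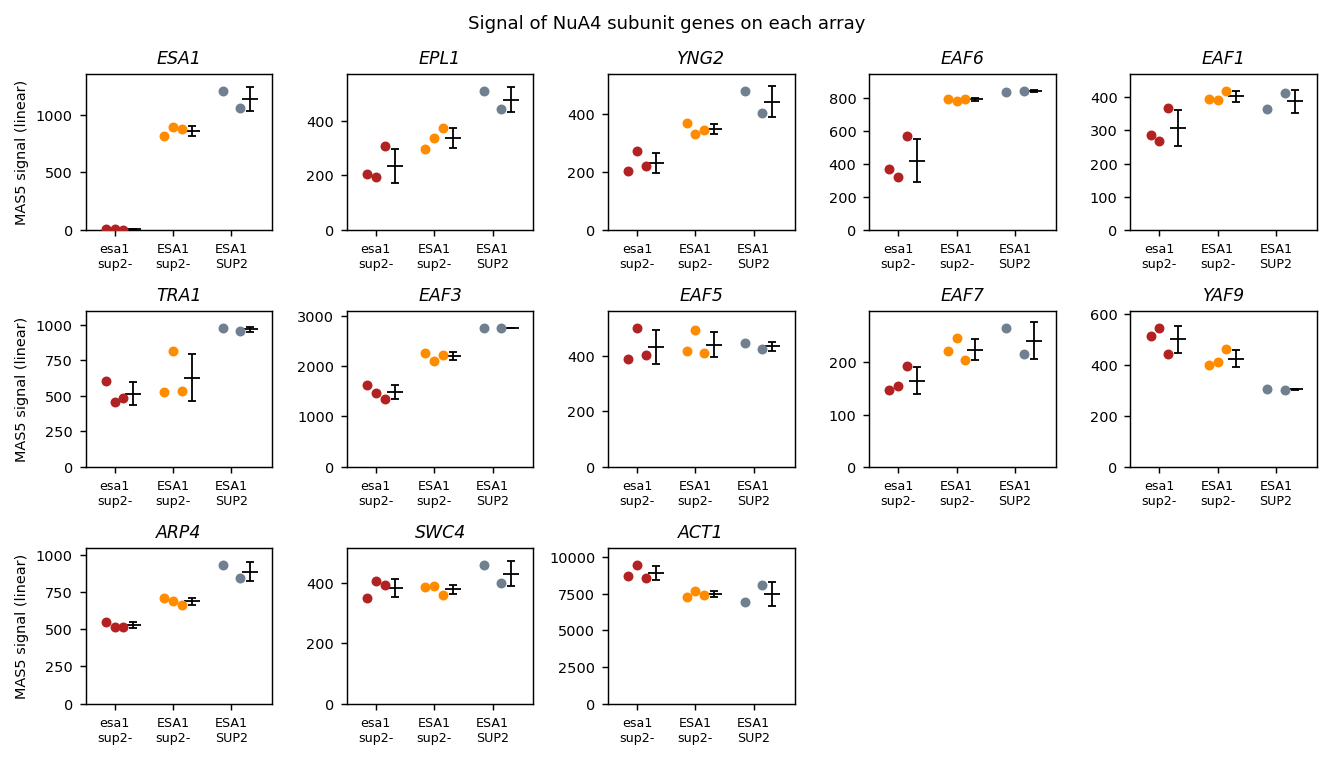
MAS5 signal (linear axis from 0) of the 13 NuA4 subunit genes. Points are arrays of the double mutant (esa1 sup2-), the single mutant (ESA1 sup2-) and the wild type (ESA1 SUP2), left to right in each panel, and the black mark is the mean with its SD. ESA1 lies near 0 in the double mutant. The means of EPL1, YNG2, EAF6, TRA1, EAF3, EAF7 and ARP4 are lowest in the double mutant and highest in the wild type. EAF5 overlaps between strains and YAF9 is higher in both mutants.

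ESA1 (YOR244W, chromosome XV) gave signals of 1.19, 3.34 and 0.267 on the double-mutant arrays, against 819, 894 and 877 in the single mutant and 1216 and 1067.5 in the wild type. All double-mutant values lay below the background bound of those arrays (11.3 to 12.4), the level under which 99% of probe sets for genes of another yeast fall. The double mutant was at least 73.3-fold below the single mutant (limma adjusted p = 6.2e-09). Against the wild type it was at least 96.8-fold lower (limma adjusted p = 1.29e-08). These p-values add no support, because ESA1 passed the filter through the other strains and the added 121 compresses the spread of signals below background. The single mutant itself held 75.6% of the wild-type signal (log2 difference -0.36, SE 0.08, limma adjusted p = 0.00489). That last call ended without wild-type replicate 1 (-0.27, limma adjusted p = 0.0589).

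EPL1 encodes the subunit that holds Esa1 and binds the nucleosome, and it joins the catalytic module to the rest of the complex. Its signal was 204, 195 and 306 in the double mutant, against 297, 338 and 374 in the single mutant and 510 and 445 in the wild type. Double and single mutant overlapped through replicate 3 of the double mutant, while both mutants lay below the wild type. The log2 difference was -0.37 (SE 0.12, limma adjusted p = 0.0245) against the single mutant and -0.76 (SE 0.14, limma adjusted p = 0.000845) against the wild type. Between single mutant and wild type it was -0.39 (SE 0.14, limma adjusted p = 0.0414).

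YNG2 encodes an ING-family protein whose PHD finger reads methylated histone H3. It gave 203, 271 and 220 in the double mutant, against 369, 332 and 344 in the single mutant and 482 and 406 in the wild type. No strain overlapped another, and the double mutant was lowest and the wild type highest. The double mutant was lower than the single mutant, with a log2 change of -0.42 (SE 0.09, limma adjusted p = 0.00293) and -0.68 against the wild type (SE 0.10, limma adjusted p = 0.000237). The single mutant did not pass the test against the wild type (-0.26, 95% interval -0.49 to -0.03, limma adjusted p = 0.0554), though it did with quantile normalization (-0.34), median centring (-0.32), a doubled pseudocount (-0.21) and a model of those strains alone (-0.26).

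EAF6, a small subunit shared with NuA3, showed its step in the double mutant. Its signal was 369, 321 and 572 there, against 799, 786 and 795 in the single mutant and 839 and 847 in the wild type. The arrays of the mutants do not overlap, yet replicate 3 of the double mutant stood well above replicates 1 and 2. The log2 difference was -0.78 (SE 0.15, limma adjusted p = 0.00132) against the single mutant and -0.86 (SE 0.16, limma adjusted p = 0.00111) against the wild type. Between single mutant and wild type it was -0.08 (95% interval -0.45 to 0.29, limma adjusted p = 0.722).

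Calls for this module depended unevenly on single arrays. EPL1 in the double against the single mutant was no longer called without double-mutant replicate 1 (-0.31) or 2 (-0.29) or single-mutant replicate 2 (-0.37) or 3 (-0.31), with limma adjusted p of 0.0571 to 0.0855. EPL1 between single mutant and wild type was not called without single-mutant replicate 1 or 2 or either wild-type array (-0.47 to -0.31, limma adjusted p 0.0758 to 0.223), while the calls of YNG2 and EAF6 in the double mutant held with each array left out. Against the single mutant, the calls of EPL1 (-0.16 and -0.20), YNG2 (-0.20 and -0.25) and EAF1 (-0.10 and -0.11) were lost under quantile normalization and poly-A scaling, those of EPL1 (-0.24) and EAF1 (-0.17) also under median centring, while that of EAF6 held. EPL1 between single mutant and wild type was also not called with poly-A scaling (-0.34), hybridization control scaling (-0.32) or a pseudocount of 1 (-0.51).

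EAF1, the scaffold found in no other complex, gave 285, 269 and 369 in the double mutant, against 396, 392 and 420 in the single mutant and 364 and 412 in the wild type. Its fall in the double against the single mutant was -0.30 (SE 0.09, limma adjusted p = 0.0203), and against the wild type it missed the threshold (-0.25, 95% interval -0.49 to -0.01, limma adjusted p = 0.0533). The single mutant and wild type overlapped (0.04, limma adjusted p = 0.758). The EAF1 call ended without double-mutant replicate 1 or 2 or single-mutant replicate 3, and against the wild type a call appeared without double-mutant replicate 3 (-0.35).

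TRA1 encodes a very large protein of the PI3-kinase-related family with no kinase activity, through which activators recruit both NuA4 and SAGA. It gave 604, 456 and 483 in the double mutant, against 523, 816 and 536 in the single mutant and 978 and 954 in the wild type. Both mutants lay below the wild type, and the mutants overlapped each other, with single-mutant replicate 2 far above its partners. Against the wild type the double mutant was lower, at -0.78 (SE 0.17, limma adjusted p = 0.00228), and so was the single mutant, at -0.57 (SE 0.17, limma adjusted p = 0.0205). The mutants did not differ past the threshold (-0.22, 95% interval -0.56 to 0.12, limma adjusted p = 0.225). The single-mutant call ended without single-mutant replicate 1 (-0.47) or 3 (-0.49) or wild-type replicate 1 (-0.55) or 2 (-0.58), with limma adjusted p of 0.0667 to 0.103.

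EAF3, of the histone-reading module, carries a chromodomain that reads methylated histone H3 and also sits in Rpd3S. It gave 1623, 1471 and 1349 in the double mutant, against 2266, 2111 and 2230 in the single mutant and 2763 and 2755 in the wild type, with no overlap between strains. In log2 terms the difference was -0.54 (SE 0.08, limma adjusted p = 0.000327) in the double against the single mutant and -0.85 (SE 0.09, limma adjusted p = 2.56e-05) against the wild type. In the single mutant it was -0.31 against the wild type (SE 0.09, limma adjusted p = 0.0171), a call that ended with either wild-type array left out (-0.31 both times, limma adjusted p = 0.0964 and 0.0915), with poly-A scaling (-0.26) and with hybridization control scaling (-0.23). The call against the single mutant ended with poly-A scaling (-0.31, limma adjusted p = 0.164).

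EAF5, which belongs to the same module, passed no test. It gave 391, 503 and 405 in the double mutant, against 420, 496 and 411 in the single mutant and 447 and 424 in the wild type, and all strains overlapped. The log2 fold change of the double mutant was -0.03 against the single mutant (95% interval -0.24 to 0.19) and -0.01 against the wild type (95% interval -0.25 to 0.23), with limma adjusted p of 0.825 and 0.929. Both signs flipped with quantile normalization, median centring and poly-A scaling (0.07 to 0.23), still uncalled. In the single mutant it was 0.01 against the wild type (limma adjusted p = 0.926), and -0.05 with quantile normalization and -0.04 with median centring.

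The array reads EAF5 a further 3 times, because the gene is used as a labelling control with probe sets at its 5′ end, middle and 3′ end. The 5′ set gave 108 ± 2.60 in the double mutant (SD, n = 3), against 100.2 ± 3.90 in the single mutant (SD, n = 3) and 106.0 ± 10.1 in the wild type (SD, n = 2). The middle set gave 375 ± 22.1 in the double mutant, against 389 ± 39.6 in the single mutant and 386 ± 3.59 in the wild type. The 3′ set gave 317 ± 40.2 in the double mutant, against 382 ± 18.7 in the single mutant and 394 ± 55.2 in the wild type. With these sets added to the same fit none was called in any comparison, and the 3′ set, lower on every double-mutant array than on any other, came nearest (double mutant against wild type -0.23, limma adjusted p = 0.0614). These sets were chosen after the files were seen.

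**Figure D2:**
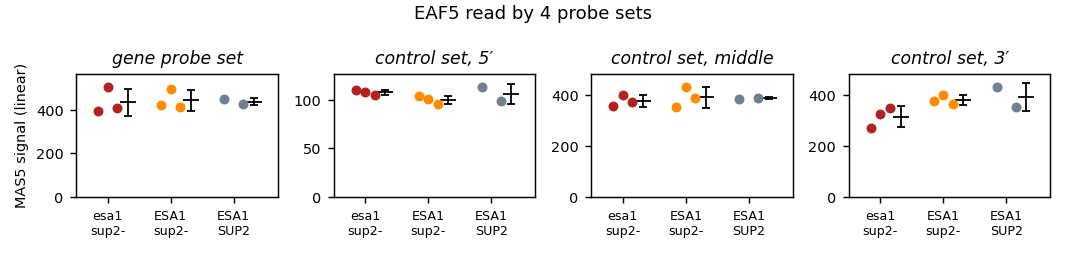
MAS5 signal (linear axis from 0) of EAF5 from its gene probe set and from control probe sets at the 5′ end, middle and 3′ end. Points are arrays of the double mutant, single mutant and wild type from left to right, with mean and SD in black. The strains overlap in the gene and middle panels, the double-mutant 5′ points lie above those of the single mutant, and the double-mutant 3′ points lie below all others.

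EAF7, the remaining partner of EAF3 and EAF5, was among the dimmest 20% of probe sets and was not tested with the others. Its signal was 147, 154 and 194 in the double mutant, against 222, 246 and 205 in the single mutant and 267 and 216 in the wild type. All double-mutant arrays lay below all others. With no filter on dim probe sets the log2 difference was -0.27 (SE 0.09, limma adjusted p = 0.0221) against the single mutant and -0.34 (SE 0.10, limma adjusted p = 0.0114) against the wild type.

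YAF9, shared with SWR1, encodes a YEATS-domain protein that reads acetylated histone tails and was the member that rose. It gave 514, 545 and 441 in the double mutant, against 398, 409 and 461 in the single mutant and 305 and 301 in the wild type. Both mutants lay above the wild type and overlapped each other. The log2 difference was 0.55 (SE 0.09, limma adjusted p = 0.000560) in the double mutant and 0.36 (SE 0.09, limma adjusted p = 0.0113) in the single mutant, both against the wild type. That of the single mutant ended with either wild-type array left out (0.36 and 0.35, limma adjusted p = 0.0649 and 0.0711) and with poly-A scaling (0.39, limma adjusted p = 0.107). Between the mutants it missed the threshold (0.19, 95% interval 0.0021 to 0.38, limma adjusted p = 0.0681) and passed it without double-mutant replicate 3 (0.26, limma adjusted p = 0.0162) and with quantile normalization, median centring or poly-A scaling (0.32 to 0.39).

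ARP4, an actin-related subunit of NuA4, SWR1 and INO80, had no overlap between strains. It gave 551, 518 and 517 in the double mutant, against 707, 690 and 664 in the single mutant and 933 and 842 in the wild type. Each step passed the test, with -0.32 (SE 0.07, limma adjusted p = 0.00326) for the double against the single mutant and -0.32 (SE 0.08, limma adjusted p = 0.00818) for the single mutant against the wild type. The single-mutant call ended without wild-type replicate 1 (-0.25, limma adjusted p = 0.0958), with poly-A scaling (-0.27) and with hybridization control scaling (-0.24). With poly-A scaling the double mutant was not called against the single mutant (-0.11, limma adjusted p = 0.648) or the wild type (-0.38, limma adjusted p = 0.0954).

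SWC4, a DNA-binding-domain subunit of NuA4 and SWR1, gave 350, 406 and 392 in the double mutant, against 386, 388 and 360 in the single mutant and 459 and 400 in the wild type. None of its comparisons passed the test (log2 fold changes -0.14 to 0.01). With quantile normalization it was called higher in the double mutant, against the single mutant (0.20, limma adjusted p = 0.0398), and with hybridization control scaling that value was -0.08. ACT1, which encodes actin and works mostly outside chromatin, was higher in the double mutant by 0.25 against either strain (limma adjusted p = 0.0101 and 0.0150). That rise was 0.03 and 0.04 and uncalled with quantile normalization, and 0.14 and uncalled against the wild type without wild-type replicate 1. ACT1 control probe sets, chosen after the files were seen, differed by position. Against the single mutant the 3′ sets gave 0.20 and 0.26 and the 5′ sets 0.40 and 0.43. Against the wild type they gave 0.17 and 0.21 (3′) and 0.37 and 0.41 (5′). The first 3′ set was not called in either comparison (limma adjusted p = 0.0567 and 0.116).

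**Figure D3:**
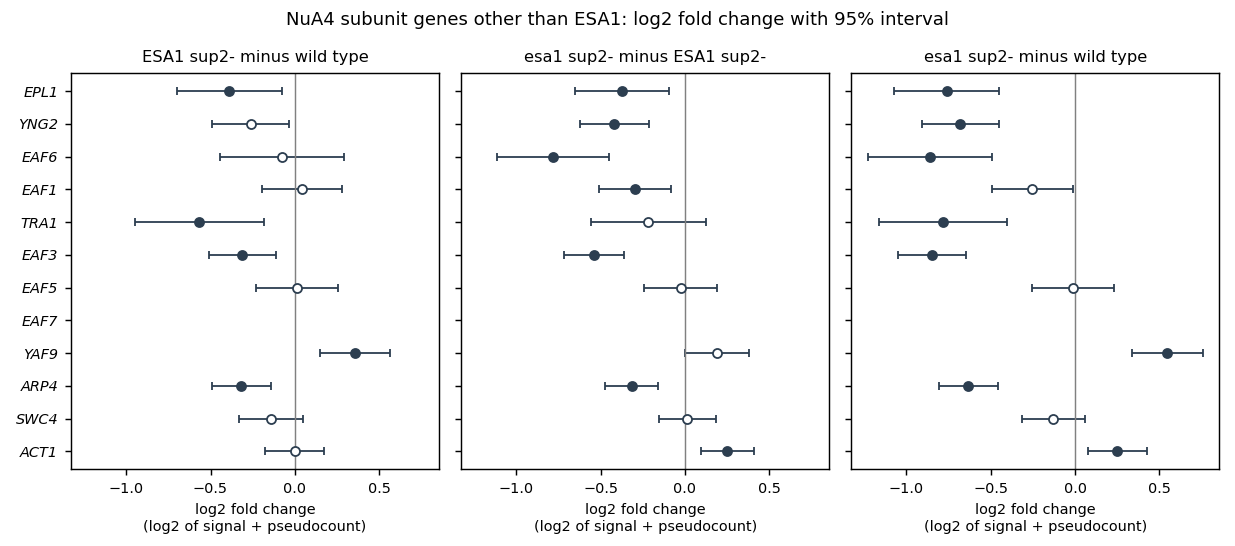
Log2 fold change (horizontal axis, on the log2(signal + 121) scale) of NuA4 subunit genes other than ESA1 in each comparison, with 95% intervals from limma. Filled points passed an adjusted p of 0.05 and open points did not; EAF7 was not tested. EPL1, YNG2, EAF6, TRA1, EAF3 and ARP4 lie left of 0 in the double mutant against the wild type, YAF9 lies right of it and EAF5 on it.

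Likeness between members over the 8 arrays was measured as the root mean square difference of mean-centred log2 values, in which a small value means a similar course. Each tested member other than ESA1 was set beside its nearest tested member, and EAF7 was left out. YNG2 and EAF3 were nearest to each other (0.137), as were EAF1 and EAF5 (0.212). EPL1 was nearest to YNG2 (0.187), EAF6 to EPL1 (0.206), TRA1 to EAF3 (0.236) and YAF9 to EAF5 (0.241). Many genes outside the members lay nearer in every case. EAF3 ranked 180 among the tested probe sets by likeness to YNG2, and YNG2 ranked 219 for EAF3 and 309 for EPL1. EPL1 ranked 157 for EAF6 and EAF3 ranked 423 for TRA1. EAF5 ranked 986 for EAF1 and 1178 for YAF9, and EAF1 ranked 1007 for EAF5. For ESA1 the 5 genes picked by the same measure were DIP5, WTM1, CYB2, IDP2 and SPG4. Its double-mutant signals lie below background, so its course there is set by the added 121, and the distances and their order carry no meaning. DIP5, an amino acid permease gene, gave 366, 307 and 393 in the double mutant, against 3537, 4249 and 3547 in the single mutant and 4473 and 4635 in the wild type. Unlike ESA1, all 5 kept signals of 247 to 903 in the double mutant, above background.

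Relatives of Esa1 were also measured. SAS2 and SAS3 encode the other MYST-family acetyltransferases, the catalytic subunits of the SAS complex and of NuA3. SAS2 gave 291, 308 and 239 in the double mutant, against 292, 339 and 321 in the single mutant and 232 and 199 in the wild type. It was higher than in the wild type in the double mutant (0.25, SE 0.10, limma adjusted p = 0.0400) and in the single mutant (0.38, SE 0.10, limma adjusted p = 0.00993), and the mutants overlapped (-0.13, limma adjusted p = 0.201). The double-mutant call ended without double-mutant replicate 1 (0.23) or 2 (0.20) or wild-type replicate 1 (0.32) or 2 (0.18), and the single-mutant call without wild-type replicate 2 (0.31). Poly-A scaling also ended the single-mutant call (0.41), and hybridization control scaling (0.22) or a model of those strains alone (0.25) the double-mutant call. SAS3 was too dim for the test, with 190, 151 and 247 in the double mutant, against 221, 241 and 242 in the single mutant and 170 and 181 in the wild type. SAS5, a YEATS-domain partner of SAS2, was lower than in the wild type in both mutants (-0.65 in the double and -0.51 in the single, limma adjusted p = 3.39e-05 and 0.000505).

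YNG1, the NuA3 relative of YNG2, gave 352, 335 and 287 in the double mutant, against 992, 843 and 896 in the single mutant and 1284 and 1247 in the wild type. Its double-mutant signal was 25.7% of the wild type (log2 difference -1.64, SE 0.09, limma adjusted p = 7.57e-07). PHO23, the ING protein of the Rpd3L deacetylase, was lower in the double mutant, set against the single mutant (-0.42, limma adjusted p = 0.00208; -0.21 and uncalled with poly-A scaling). TAF14, a YEATS protein of NuA3, TFIID and several remodellers, was higher in the double mutant, set against the single mutant (0.66, SE 0.10, limma adjusted p = 0.000493). In the single mutant TAF14 was lower than in the wild type (-0.34, limma adjusted p = 0.0366), a call that ended with any array of those strains left out (-0.40 to -0.28, limma adjusted p 0.0629 to 0.206) and with poly-A (-0.29) or hybridization control scaling (-0.26).

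**Figure D4:**
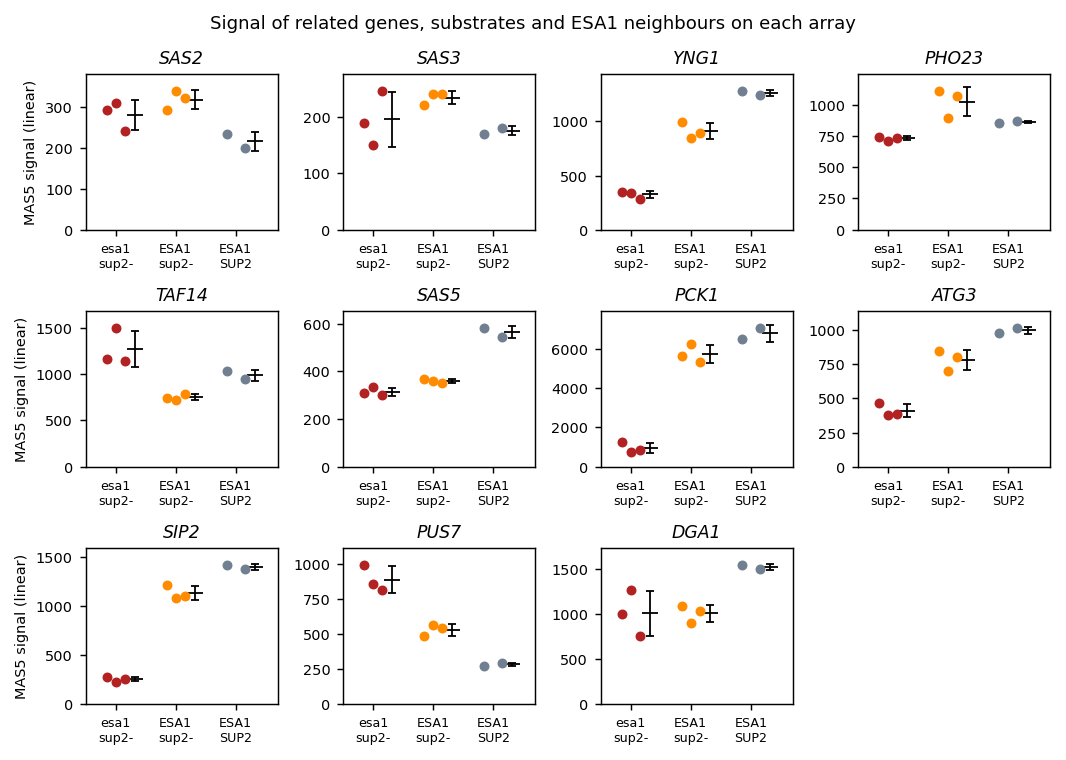
MAS5 signal (linear axis from 0) of genes for protein relatives of Esa1, Yng2 and Yaf9 (SAS2 to SAS5), of non-histone substrates (PCK1, ATG3, SIP2) and of the genes beside ESA1 (PUS7, DGA1). Points are arrays of the double mutant, single mutant and wild type from left to right, with mean and SD in black. The double-mutant points of PCK1, SIP2, ATG3, YNG1, PHO23 and SAS5 lie below all others, and those of PUS7 and TAF14 above.

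Of the proteins reported as non-histone substrates of Esa1, 3 were chosen here (PCK1, ATG3, SIP2). They were chosen with earlier results of these data known, so their count describes these genes only and not substrates as a group. All 3 genes were lower in the double mutant, against the single mutant and against the wild type (background 35.8% and 36.6% lower). PCK1, the gluconeogenic enzyme phosphoenolpyruvate carboxykinase, gave 1232, 748 and 829 in the double mutant, against 5629, 6232 and 5327 in the single mutant and 6498 and 7084 in the wild type. Its log2 fold change against the single mutant was -2.49 (SE 0.15, limma adjusted p = 2.17e-06). SIP2, a beta subunit of the Snf1 kinase that acts when glucose is scarce, fell to 251 ± 22.4 in the double mutant, against 1133 ± 73.6 in the single mutant (SD, n = 3 each; log2 fold change -1.75, limma adjusted p = 3.16e-07). ATG3, an enzyme of autophagosome formation, was at -0.77 (SE 0.09, limma adjusted p = 9.84e-05). Between single mutant and wild type the 3 lay between -0.31 and -0.24, with ATG3 and SIP2 called; those 2 calls ended without single-mutant replicate 2 or 3 or either wild-type array (-0.34 to -0.25). They also ended with poly-A scaling (ATG3 -0.26, SIP2 -0.23) and hybridization control scaling (ATG3 -0.24, SIP2 -0.20).

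The genes on either side of ESA1 on chromosome XV were both measured. PUS7, a pseudouridine synthase gene, gave 998, 861 and 813 in the double mutant, against 485, 566 and 545 in the single mutant and 273 and 291 in the wild type. It rose at each step, by 0.63 (SE 0.09, limma adjusted p = 0.000247) in the double against the single mutant and by 0.69 (SE 0.10, limma adjusted p = 0.000563) between single mutant and wild type. DGA1, which makes triacylglycerol, gave 992, 1263 and 753 in the double mutant, against 1084, 896 and 1033 in the single mutant and 1543 and 1492 in the wild type. The mutants overlapped (-0.02, 95% interval -0.37 to 0.32), and both lay below the wild type (-0.57 and -0.55, limma adjusted p = 0.0133 and 0.0253). Both DGA1 calls ended without wild-type replicate 1 (-0.55 and -0.52) or 2 (-0.59 and -0.57), and the single-mutant call also without single-mutant replicate 2 (-0.47) or 3 (-0.57). With poly-A scaling DGA1 was at -0.29 in the double mutant and -0.49 in the single mutant, neither called.

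Complexes that share a subunit with NuA4 were counted from lists chosen with earlier results known, and are read against the same background shares. In every comparison the lists leave out the shared NuA4 subunits themselves, which are described above. These are YAF9, ARP4, SWC4 and ACT1 for SWR1, TRA1 for SAGA, EAF3 for Rpd3S and EAF6 for NuA3. The counts are therefore not those of whole complexes. In the double against the single mutant the SWR1 complex had 2 of 9 tested genes higher and 2 lower, and SAGA 3 of 14 higher and 5 lower. Rpd3S had 0 of 3 higher and 1 lower, and NuA3 1 of 4 higher and 3 lower. The background over all tested probe sets was 31.8% higher and 35.8% lower. In SWR1 the smallest p-values were those of SWC5 (-0.78) and RVB2 (0.40). In SAGA they were those of SPT8 (-0.59) and NGG1 (-0.60), and in Rpd3S those of RPD3 (-0.42) and SIN3 (-0.21, not called). In NuA3 they were YNG1 and TAF14. Factors that help to fold or assemble Tra1 had 3 of 6 genes higher (RVB1 0.20, RVB2 0.40, ASA1 0.31) and 1 lower (TEL2 -0.50). RVB1 and RVB2 are on the SWR1 list too and are its 2 higher genes, so these counts overlap. The calls of RPD3 (-0.20) and TEL2 (-0.31) ended with poly-A scaling, and SIN3 was called without double-mutant replicate 3 (-0.32).

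In the double mutant against the wild type, the background was 37.9% higher and 36.6% lower. SWR1 had 1 of 9 genes higher and 3 lower, led by VPS72 (-0.46) and SWC5 (-0.38). SAGA had 4 of 14 higher and 6 lower, led by NGG1 (-0.89) and SGF11 (0.98). Rpd3S had 0 of 3 higher and 2 lower (RPD3 -0.53, SIN3 -0.78), and NuA3 1 of 4 higher and 3 lower, with NTO1 at -0.24. The Tra1 factors had 1 of 6 higher (RVB2 0.24, also the higher SWR1 gene) and 1 lower (TTI2 -0.26). The calls of NTO1 (-0.21), TTI2 (-0.22) and RVB2 (0.26) ended without wild-type replicate 1, and that of RVB2 also without wild-type replicate 2 (0.21) or double-mutant replicate 1 (0.18) and with hybridization control scaling (0.20). With poly-A scaling NTO1 (-0.032), TTI2 (-0.025), RPD3 (-0.27), SWC5 (-0.18) and VPS72 (-0.22) were not called, and NTO1 (-0.089) and TTI2 (-0.14) were lost with quantile normalization. BDF1, among the lower SWR1 genes at -0.24, was lost without double-mutant replicate 1 (-0.21) or 3 (-0.20) or wild-type replicate 1 (-0.22) or 2 (-0.26).

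Between single mutant and wild type the background was 28.5% higher and 22.1% lower. SWR1 had 1 of 9 genes higher (SWC5 0.40) and 1 lower (BDF1 -0.44). SAGA had 2 of 14 higher and 3 lower (SPT8 0.43, TAF12 -0.49), Rpd3S 0 of 3 higher and 1 lower (SIN3 -0.57) and NuA3 0 of 4 higher and 2 lower (YNG1, TAF14). The Tra1 factors had 1 of 6 higher (TEL2 0.41) and 0 lower. The SIN3 call ended without wild-type replicate 1 (-0.58) or 2 (-0.56), and that of SWC5 without wild-type replicate 2 (0.36). With poly-A scaling BDF1 (-0.39), TAF12 (-0.43), TEL2 (0.44) and YNG1 (-0.38) were not called.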

How the data were processed

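Total RNA, prepared with hot phenol, was turned into biotinylated cRNA for Affymetrix yeast arrays, per the labels' protocols. The authors deposited one linear intensity for each probe set and array, a MAS5 signal from GCOS according to the submitters' processing notes. Software versions are not stated in the labels. Of the deposited instrument records only the fluidics station number was read, and groups came from the labels.

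From these, log2(signal + 121) was computed, the dimmest 20% of probe sets by mean were removed, and all 8 arrays entered 1 model in limma 3.58.1 (R 4.3.3) with trended empirical Bayes variances. Adjusted p-values follow Benjamini-Hochberg over 4398 probe sets. The model was tested on simulated data that gave each gene the same spread in all strains. That test does not cover the larger spread of the double-mutant arrays. The number of arrays limits the precision. Same-numbered arrays did not all deviate together (correlations -0.093 to 0.142), so numbers were not taken as pairs.

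Named genes are the members, the other NuA4 subunits, family relatives, non-histone substrates, the neighbours of ESA1, the 2 smallest p-values per list and comparison, the 5 genes most like ESA1 and each member's nearest member. Members and lists were chosen with earlier results of these data known. Alternatives were other pseudocounts, scalings, filters and variance settings, a replicate block, models of 2 groups alone and leaving out each array.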

Additional observations from a re-analysis of the deposited data

How the results depend on the processing

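Of 459 alternative values for the members, 385 kept direction and call, 38 lost a call, 10 gained one and 26 changed sign. Those kept include all ESA1 values of the double mutant, 17 against the single mutant and 16 against the wild type. These add no support, for the reasons given with ESA1. Groups of 2 or 3 arrays, each on its own fluidics station, limit every comparison, and signals near background carry no order. The cause of the changes below was not tested, except that with the dimmest 50% of probe sets left out only 3 members (EAF3, EAF6, TRA1) remained to be tested.

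For the single mutant over wild type, members called lower numbered 2 with a pseudocount of 1, 1 with poly-A scaling and 2 with hybridization control scaling. They numbered 2 with the dimmest 50% left out and 2 without single-mutant replicate 1. Over all probe sets lower calls numbered 930, 378, 577, 578 (of 2749) and 763 in that order, against 974 in the main fit. Members called higher numbered 0 with poly-A scaling and 0 with the dimmest 50% left out. Over all probe sets higher calls there numbered 848 and 799, against 1253. The ESA1 difference was -0.40 with a pseudocount of 1 (limma adjusted p = 0.453), -0.31 with poly-A scaling (limma adjusted p = 0.203) and -0.44 to -0.27 with one array left out. Between double and single mutant, members called lower numbered 3 with quantile normalization, 2 with poly-A scaling and 2 with the dimmest 50% left out. Over all probe sets lower calls there numbered 1298, 724 and 871 (of 2749), against 1574. Members called higher numbered 1 with quantile normalization, median centring or poly-A scaling and 0 to 1 with one array left out. In those 3 scalings higher calls over all probe sets numbered 1524, 1760 and 1586, against 1397. Between double mutant and wild type, members numbered 0 higher and 3 lower with the dimmest 50% left out. All 2749 probe sets then gave 1167 higher and 925 lower.

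Sign changes between single mutant and wild type were EAF1 -0.027, EAF5 -0.053 and ACT1 0.0053 with quantile normalization, and EAF1 -0.0098 and EAF5 -0.039 with median centring. ACT1 was 0.052 with poly-A scaling and 0.085 with hybridization control scaling, where EAF6 was 2e-04. The EAF5 control sets gave -0.031 (3′) and -0.037 (5′), chosen after seeing the data. With one array left out EAF1 spanned -0.026 to 0.11, EAF5 -0.053 to 0.053 and ACT1 -0.11 to 0.11.

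Sign changes between double and single mutant with quantile normalization were EAF5 0.14, SAS2 0.072, SAS5 0.053, DGA1 0.0099 and TTI2 0.14. With median centring they were EAF5 0.10, DGA1 0.11 and TTI2 0.078. With poly-A scaling they were EAF5 0.17, SAS2 0.049, SAS5 0.043, DGA1 0.20, TAF12 0.050, SIN3 0.012 and TTI2 0.14. SWC4 was -0.083 with hybridization control scaling, and the EAF5 5′ control set gave 0.049. With one array left out EAF5 spanned -0.11 to 0.041, SWC4 -0.021 to 0.060, DGA1 -0.19 to 0.14 and TTI2 -0.092 to 0.007.

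Sign changes between double mutant and wild type were EAF5 0.090 and TEL2 0.014 with quantile normalization and EAF5 0.066 with median centring. With poly-A scaling they were EAF5 0.23, SWC4 0.10, PHO23 0.058, BDF1 0.044, SPT8 0.062 and TEL2 0.14. The EAF5 5′ control set gave 0.012, and EAF5 spanned -0.10 to 0.042 with one array left out.

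With the replicate number as a block, calls over all probe sets numbered 2033 between single mutant and wild type, 2894 between double and single mutant and 3196 between double mutant and wild type, against 2227, 2971 and 3277 without it. In that block EAF1 was -0.019 and ACT1 0.015 between single mutant and wild type, EAF5 was 0.026 between double mutant and wild type, and EAF1 was called between double mutant and wild type (-0.32, limma adjusted p = 0.022). Between single mutant and wild type the block ended the calls of TRA1 (-0.51, limma adjusted p = 0.0584), TAF14 (-0.32), ATG3 (-0.31), DGA1 (-0.47) and NGG1 (-0.28), and between double mutant and wild type those of TAF14 (0.34) and BDF1 (-0.20).

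Other calls lost in list genes were VPS72 (-0.094, -0.14 and -0.074) between double and single mutant with quantile normalization, median centring and poly-A scaling, and NTO1 there with quantile normalization (-0.15) and poly-A scaling (-0.20). Between double mutant and wild type BDF1 (-0.16) and NTO1 (-0.16) were lost with median centring and TAF12 (-0.38) with poly-A scaling. NGG1 was lost between single mutant and wild type with poly-A (-0.24) and hybridization control scaling (-0.22).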
